A study of Mus musculus with 5 samples.

Results

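Of the 886 placed peaks that an antibody against IRF4 gave in B cells after 72 h of culture with lipopolysaccharide (LPS), 251 peaks (28.3%) overlapped no interval of any other list of the series. These 251 regions, called IRF4-alone peaks here, are described below beside the remaining 635 peaks of the same library, called shared peaks. The IRF4-alone peaks were chosen by position: a peak of the 72 h IRF4 list on chromosomes 1 to 19 or X was kept when it had no base in common with an interval of the other 4 lists. The 5 lists of the series hold 5590 intervals in all. The choice rests on which places passed the peak caller in each library, so the number of IRF4-alone peaks and their tag counts are a description and carry no test.

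The series maps the binding of IRF4 and IRF8 in mouse B cells by chromatin immunoprecipitation and sequencing (ChIP-seq), with 1 library per group and wild-type mice of the C57BL/6 strain throughout. The groups were IRF4 at 72 h, which supplied the peaks described here, IRF4 at 48 h, IRF8 at 72 h and IRF8 at 48 h, all from naive spleen B cells cultured with 10 μg/ml LPS, and finally IRF8 in B cells of the germinal centre (GC), sorted 13 days after immunisation with NP-KLH, a hapten coupled to a carrier protein. The age and sex of the mice and the number of animals behind a library are not given in the labels. Lists of binding sites hold no expression values, so the labelled cell types could not be checked against marker genes, and every p-value below compares sets of peaks within 1 list, not culture times or factors.

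IRF4 and IRF8 are related DNA-binding proteins of the interferon regulatory factor family. Alone they bind DNA weakly. On the ETS-IRF composite element (EICE) they bind together with PU.1 or SPIB, on the AP-1-IRF composite elements (AICE) together with BATF and JUN proteins, and at high amounts IRF4 can occupy interferon-stimulated response elements (ISRE). IRF4 increases in activated B cells and is required for plasma cell differentiation, and LPS cultures form plasmablasts at around the times sampled here.

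The sequences below show what the elements look like in the IRF4-alone peaks with most tags among the genes named later. Each line gives 60 bases of mm9 (the NCBIM37 assembly), written 5′ to 3′ on the strand that reads the element forwards. Capitals mark the element, which has the letters GGAANNGAAA for the EICE and GAAANNGAAA for the ISRE core and is GAAA joined to an AP-1 site for AICE1.
Ell2, EICE, chr13:75877525-75877584, minus strand: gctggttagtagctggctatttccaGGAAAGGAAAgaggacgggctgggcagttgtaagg
Nek7, EICE, chr1:140511300-140511359, plus strand: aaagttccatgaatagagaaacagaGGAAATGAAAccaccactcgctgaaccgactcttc
Kcnj1, EICE, chr9:32202484-32202543, minus strand: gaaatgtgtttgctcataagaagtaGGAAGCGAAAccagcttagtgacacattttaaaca
Vav2, EICE, chr2:27167293-27167352, minus strand: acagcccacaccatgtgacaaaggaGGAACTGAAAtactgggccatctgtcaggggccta
Dpep2, EICE, chr8:108516579-108516638, plus strand: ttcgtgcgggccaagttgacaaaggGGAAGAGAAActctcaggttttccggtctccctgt
Cxcr4, EICE, chr1:130504831-130504890, plus strand: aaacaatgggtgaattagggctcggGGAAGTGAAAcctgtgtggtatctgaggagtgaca
Exoc2, EICE, chr13:31041238-31041297, minus strand: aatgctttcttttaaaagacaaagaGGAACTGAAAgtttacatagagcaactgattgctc
Atp11b, ISRE core, chr3:35663677-35663736, minus strand: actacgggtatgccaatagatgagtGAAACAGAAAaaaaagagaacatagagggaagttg
Mob1a, ISRE core, chr6:83272043-83272102, minus strand: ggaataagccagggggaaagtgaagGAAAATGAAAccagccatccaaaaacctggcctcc
Ccr7, AICE1, chr11:99011920-99011979, minus strand: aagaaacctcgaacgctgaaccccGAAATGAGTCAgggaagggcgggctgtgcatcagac
Between the fixed letters of the EICE, Vav2 and Exoc2 carried CT and Cxcr4 carried GT, the letter pairs that were most frequent in the list.

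The IRF4-alone peaks were the lower part of their list. Their normalised tag count, the authors' number of sequenced tags per peak scaled to 10000000 tags per library, ran from 21.2 to 66.4 with a median of 26.6 (quartiles 23.9 and 29.2), against 18.6 to 4684 with a median of 31.9 (quartiles 26.6 and 42.5) in shared peaks. The highest shared counts lay in multi-copy sequence, where reads cannot be placed with certainty. The 587 shared peaks in single-copy sequence reached 196, with a median of 31.9 (quartiles 26.6 and 41.1). In unscaled tags the medians were 10 in IRF4-alone peaks and 12 in shared peaks. Of the IRF4-alone peaks, 61 held 9 tags, 85 held 10 and 47 held 11, and 5 held 15 or more. A count of at least 29.2, the median of the placed list, was found in 97 IRF4-alone peaks (38.6%) and in 471 shared peaks (74.2%). Above 50 there was 1 IRF4-alone peak, at Hjurp, and there were 104 shared peaks (16.4%). At least 26.6 normalised tags were found in 182 IRF4-alone peaks (72.5%) and 579 shared peaks (91.2%). The sets thus overlapped in the range of the IRF4-alone peaks, and the upper end of the list belonged almost wholly to shared peaks.

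**Figure D1:**
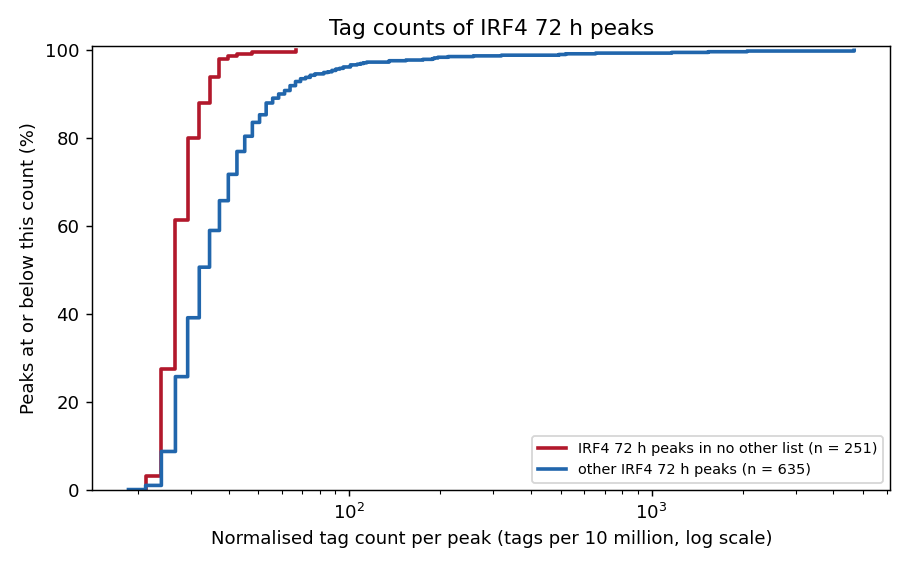
Cumulative share of peaks (vertical axis, percent) at or below a normalised tag count (horizontal axis, tags per 10000000, log scale) for the 251 IRF4-alone peaks (red) and the 635 shared peaks (blue) of the 72 h IRF4 list. The red curve is complete at 66.4, and the blue curve goes on to 4684. Shared peaks in single-copy sequence reach 196, and those above it are multi-copy.

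Other values of the authors' caller went the same way, with no test. The median fold over the surrounding region was 9.09 in IRF4-alone peaks and 11.88 in shared peaks. The median share of tags in their proper place, as the caller counts it, was 0.75 in IRF4-alone peaks and 0.818 in shared peaks.

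The depth of the LPS libraries differed. The 72 h IRF4 library held 3766015 tags, the 48 h IRF4 library 3396941, the 72 h IRF8 library 3065426 and the 48 h IRF8 library 4375858, and between 0.18% and 0.82% of these tags fell in peaks. The caller scored each peak by its tags and required a score of at least 10 in the 48 h IRF4 list, 9 in the 72 h IRF8 list and 11 in the 48 h IRF8 list. Each peak's 72 h score was scaled by the depth of another library and set against that library's threshold. For the 48 h IRF4 library, 183 IRF4-alone peaks (72.9%) and 210 shared peaks (33.1%) came out under the threshold, and the numbers were the same for the 72 h IRF8 library. Of the 183, 66 were scaled to 9.92 against a threshold of 10, or to 8.95 against 9. The other 117 had a 72 h score of 10. Counting error could put both groups, and many peaks counted above the threshold, on either side. The exact Poisson interval ran from 12.7 to 48.8 normalised tags for 10 tags and from 16.5 to 55.7 for 12 tags. The shares of 72.9% and 33.1% are therefore rough. For the deeper 48 h IRF8 library, 0 IRF4-alone peaks and 0 shared peaks came out under the threshold. This outcome was fixed in advance: the lowest 72 h score was 10 in both sets. Scaled by the depth ratio of 1.16, no peak could fall under 11, so the 0 says nothing on depth. Tags recovered from the normalised count were also used in place of the score. For the 48 h IRF4 and the 72 h IRF8 library, 201 IRF4-alone peaks (80.1%) and 249 shared peaks (39.2%) each time came out under the threshold. For the 48 h IRF8 library, 69 IRF4-alone peaks (27.5%) and 56 shared peaks (8.82%) did so. How much of the absence from these lists goes with depth was not tested. For the GC list, which holds positions and no counts, the depth is unknown.

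By the rule, every IRF4-alone peak lay apart from the intervals of the other lists. The gap to the nearest interval ran from 191 to 1773548 bp with a median of 69631 bp. Within 50000 bp, 105 IRF4-alone peaks (41.8%) had such an interval, 22 (8.76%) within 5000 bp and 4 within 500 bp. No gaps were computed for random positions, so these values do not show whether the peaks lie far from or close to the other lists. Nearest to the limit on the inside were the peaks assigned to Agpat4, 191 bp from a 48 h IRF4 peak, Atad5, 203 bp from one, and Nek7, 406 bp from one, with 26.6, 26.6 and 37.2 normalised tags; the Atad5 peak lay in multi-copy sequence. Just outside it, shared peaks at Cdk6, Gpr65 and Foxb1 overlapped a 48 h IRF4 peak by 19, 82 and 86 bp, with 31.9, 26.6 and 29.2 normalised tags. IRF4-alone peaks were found on every autosome. Their share of the placed peaks ran from 9.52% on chromosome 16 (4 of 42) to 40.4% on chromosome 3 (21 of 52).

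IRF4-alone peaks lay at promoters more often than shared peaks. A promoter peak is one whose centre is within 1000 bp of the transcription start site (TSS) of any annotated gene. There were 57 among the IRF4-alone peaks (22.7%, 95% interval 17.7 to 28.4) and 90 among the shared peaks (14.2%, 11.6 to 17.1), an odds ratio of 1.78 (1.2 to 2.61; two-sided Fisher's exact test, adjusted p = 0.00784 over 4 locations). Exons held 29 IRF4-alone peaks (11.6%) and 36 shared peaks (5.67%), an odds ratio of 2.17 (1.25 to 3.74; Fisher's exact test, adjusted p = 0.00784). Untranslated exon parts made up 25 of those 29 in the IRF4-alone set and 17 of the 36 in the shared set. Introns held 115 IRF4-alone peaks (45.8%) and 312 shared peaks (49.1%), and intergenic DNA held 107 (42.6%) and 287 (45.2%). These last shares did not pass the test (Fisher's exact test, adjusted p = 0.5 for each). The excess sat close to the start site: 26 IRF4-alone peaks (10.4%) and 24 shared peaks (3.78%) were centred within 100 bp of a TSS. The promoter difference was 7.67 percentage points among peaks with at least 29.2 normalised tags (Fisher's exact test, adjusted p = 0.112) and 6.34 points among those with fewer (adjusted p = 0.679), so in neither tag range did it pass the test. The exon difference was 8.52 points in the upper range (Fisher's exact test, adjusted p = 0.0181) and 2.46 points in the lower (adjusted p = 0.735). A peak can count as both promoter and exon, so these differences are not independent.

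Promoter peaks of the IRF4-alone set lay in DNA rich in G and C. Within 100 bp of the centre, the median G + C content was 57.5% in the 57 IRF4-alone promoter peaks and 48.5% in the 90 shared promoter peaks, and the median number of CpG dinucleotides was 14 and 5. In distal peaks, those over 1000 bp from every TSS, both sets had a median of 46% G + C and 2 CpG. The part of base composition in the promoter values was not tested.

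**Figure D2:**
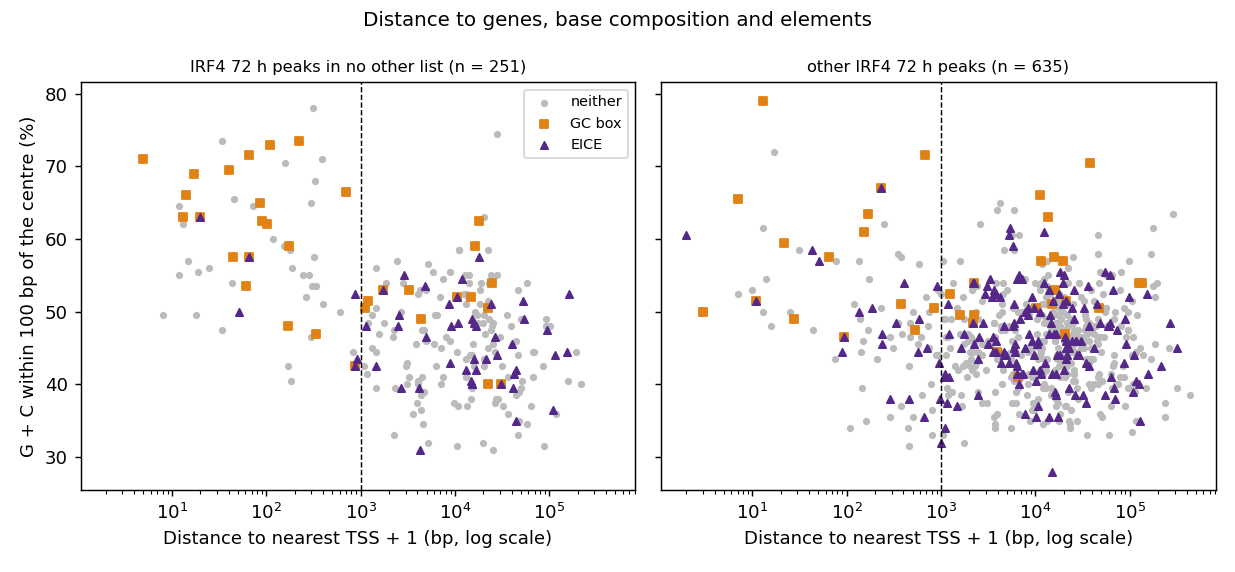
Each point is a 72 h IRF4 peak, with the distance from its centre to the nearest TSS of any gene plus 1 bp on the horizontal axis (log scale) and the G + C content within 100 bp of the centre in percent on the vertical axis. IRF4-alone peaks are on the left and shared peaks on the right; squares have a GC box, triangles an EICE (drawn on top where both are present), grey dots neither, and the dashed line marks the 1000 bp promoter limit. IRF4-alone peaks near a TSS reach 78% G + C and often hold a GC box. Most peaks are distal in both panels, with or without an EICE. The EICE is in 10.5% of promoter and 22.7% of distal IRF4-alone peaks, and in 25.6% and 28.4% of shared ones.

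The EICE and the AP-1 site were less frequent in IRF4-alone peaks than in shared peaks, though neither call held in every subset and window given below. On both strands of the 200 bp window around each centre, 16 kinds of element were searched, in all 251 IRF4-alone peaks and in the 633 shared peaks with complete sequence. The EICE was found in 50 IRF4-alone peaks (19.9%, 95% interval 15.2 to 25.4) and in 177 shared peaks (28%, 24.5 to 31.6), an odds ratio of 0.641 (0.44 to 0.924; Fisher's exact test, adjusted p = 0.0428 over 16 elements). The AP-1 site (TGAGTCA or TGACTCA), bound by JUN, FOS and BATF proteins, was in 30 IRF4-alone peaks (12%, 8.21 to 16.6) and in 134 shared peaks (21.2%, 18 to 24.6), an odds ratio of 0.506 (0.318 to 0.783; Fisher's exact test, adjusted p = 0.0118). Both shares in IRF4-alone peaks were above those of the DNA beside the peaks. In windows of the same length 1000 bp to each side of the IRF4-alone peaks, 2.19% held an EICE and 2.39% an AP-1 site, and over tiles of 200 bp from the whole genome the shares were 2.17% and 3.11%.

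Other IRF elements were rare or did not pass the test. The ISRE core was in 16 IRF4-alone peaks (6.37%) and 48 shared peaks (7.58%; Fisher's exact test, adjusted p = 0.758), beside 3.29% of genome tiles. AICE1 and AICE2, which both contain an AP-1 site, were in 1 IRF4-alone peak each (0.398%) and in 17 shared peaks each (2.69%; Fisher's exact test, adjusted p = 0.0646 for each). The sequence GAGGAAGT, a PU.1-type ETS site that can overlap an EICE, was in 22 IRF4-alone peaks (8.76%) and 59 shared peaks (9.32%; odds ratio 0.935, 0.532 to 1.59; Fisher's exact test, adjusted p = 0.957), beside 1.2% of genome tiles. Taking the EICE, ISRE core and AICE elements together, 63 IRF4-alone peaks (25.1%, 19.9 to 30.9) and 244 shared peaks (38.5%, 34.7 to 42.5) held at least 1 of them. With the AP-1 site added, the numbers were 87 (34.7%) and 326 (51.5%).

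The GC box and the cyclic AMP response element were the elements that passed the test with a higher share in IRF4-alone peaks. The GC box (GGGCGG), bound by the SP and KLF families of zinc finger proteins, was in 33 IRF4-alone peaks (13.1%, 9.23 to 18) and in 36 shared peaks (5.69%, 4.01 to 7.79), an odds ratio of 2.51 (1.47 to 4.25; Fisher's exact test, adjusted p = 0.00671). Beside the IRF4-alone peaks it was in 3.98% of windows, and in 1.96% of genome tiles. The cyclic AMP response element (CRE, TGACGTCA), bound by CREB and ATF proteins, was in 5 IRF4-alone peaks (1.99%, 0.65 to 4.59) and in 1 shared peak (0.158%), with a wide interval for the odds ratio of 12.8 (1.42 to 608; Fisher's exact test, adjusted p = 0.0428). It was in 0.11% of genome tiles. The RUNX site (TGTGGTT) went the other way, with 15 IRF4-alone peaks (5.98%) and 73 shared peaks (11.5%), an odds ratio of 0.488 (0.255 to 0.88; Fisher's exact test, adjusted p = 0.0428). The other 7 elements, the CCAAT box, YY1 and NRF1 elements of promoters included, did not pass the test (adjusted p at least 0.0605). Among them was the octamer ATGCAAAT of OCT proteins, in 12 IRF4-alone peaks (4.78%) and 22 shared peaks (3.48%), beside 1.75% of genome tiles.

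**Figure D3:**
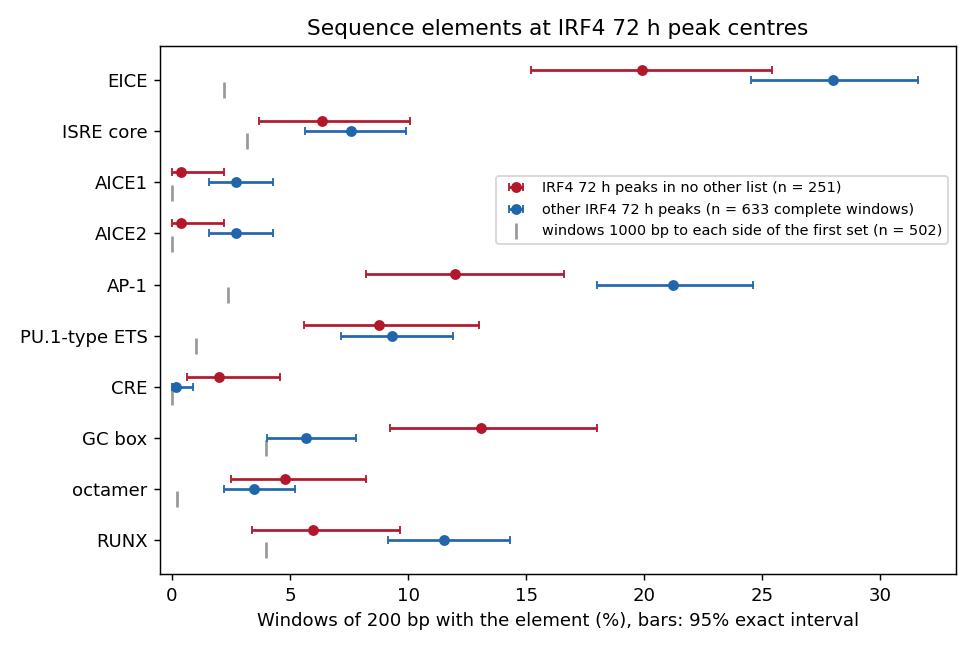
Share of 200 bp windows around the peak centre that hold each of 10 elements (horizontal axis, percent), for the 251 IRF4-alone peaks (red) and the 633 shared peaks with complete sequence (blue), with exact 95% intervals as bars. Grey ticks give the share in 502 windows 1000 bp to each side of the IRF4-alone peaks; the EICE and AP-1 shares are lower in red than in blue, and the GC box share is higher.

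The 5 CRE matches are printed with 30 bases each of mm9 on the plus strand, named by the nearest protein-coding gene, since this element was the rarest of those that passed the test; capitals mark the CRE.
Nup133, chr8:126473214-126473243: gcgcatggcaaTGACGTCAaagatcggcgc
Bdp1, chr13:100874057-100874086: ggcgccgacgaTGACGTCAgactccgggcg
Pot1a, chr6:25759207-25759236: ctaggcgcctgTGACGTCAtgcacgcgcgc
Tgfb3, chr12:87321069-87321098: tattgtacatgTGACGTCAtatggatttag
Dad1, chr14:54847144-54847173: tcccacttccaTGACGTCAcggctgctgac
The first 3 lay at the promoters of Nup133 (a nuclear pore protein), Bdp1 (a subunit of an RNA polymerase III initiation factor) and Pot1a (a telomere-binding protein), within 0.085 kb of the TSS. The other 2 were distal, inside an intron of Ttll5, 98.8 kb from the TSS of Tgfb3, and 26.5 kb from the TSS of Dad1. For the Dad1 peak, the nearest TSS of any gene was that of Trac, at 6930 bp. Trac is not among the protein-coding genes used for naming. The 5 peaks with a CRE carried 26.6 or 29.2 normalised tags.

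Promoter and distal peaks differed in their elements. The part of location in the differences between the sets was not tested. Among IRF4-alone peaks, the GC box was in 20 of 57 promoter peaks (35.1%, 22.9 to 48.9) and in 13 of 194 distal peaks (6.7%, 3.62 to 11.2), while the EICE was in 6 promoter peaks (10.5%, 3.96 to 21.5) and in 44 distal peaks (22.7%, 17 to 29.2). Shared promoter peaks held a GC box in 16.7% and an EICE in 25.6% of 90 peaks. Among distal peaks alone, the EICE was in 22.7% of IRF4-alone and 28.4% of shared peaks and the AP-1 site in 13.9% and 22.8%, and neither passed the test (Fisher's exact test, adjusted p = 0.302 and 0.15). The GC box was then in 6.7% of IRF4-alone and 3.87% of shared peaks (Fisher's exact test, adjusted p = 0.302). Restricting the comparison to peaks with at least 29.2 normalised tags kept the calls for the AP-1 site (−12.08 percentage points, adjusted p = 0.0447) and the GC box (10.52 points, adjusted p = 0.0206) but not that for the EICE (−4.9 points, adjusted p = 0.622), by Fisher's exact test. Below that tag count none of these 3 passed (Fisher's exact test, adjusted p between 0.461 and 0.557). The RUNX call was lost among single-copy peaks (Fisher's exact test, adjusted p = 0.0605). Both the RUNX and the CRE call were lost in either tag range and in distal or promoter peaks alone. They were also lost in windows of 50 bp to each side and in whole peaks (Fisher's exact test, adjusted p at least 0.0846 throughout). Those for the EICE, AP-1 site and GC box were lost in the window of 50 bp to each side (adjusted p between 0.0754 and 0.0846).

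The shared peaks were not uniform either. Those shared with the 48 h IRF4 list and no IRF8 list (271 peaks) held an EICE in 23.2% and an AP-1 site in 28.8% of cases. Those shared with an IRF8 list (362 with complete sequence) held them in 31.5% and 15.5%. The IRF4-alone shares of 19.9% and 12% were thus below both subsets for each element, as a description without a test.

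Where an EICE was present, it lay near the peak centre in both sets. The 50 IRF4-alone peaks with an EICE held 53 matches, and the 177 shared peaks held 182. The EICE nearest to the centre was within 25 bp of it in 20 IRF4-alone peaks (40%) and in 96 shared peaks (54.2%), and within 50 bp in 35 (70%) and 137 (77.4%). Its median distance was 29.5 bp in IRF4-alone peaks and 21 bp in shared peaks. The letters CT or GT stood between the fixed parts of the element in 29 of 53 matches of IRF4-alone peaks (54.7%) and in 131 of 182 matches of shared peaks (72%). IRF4-alone peaks with and without an EICE had the same median of 26.6 normalised tags. None of these differences was tested.

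**Figure D4:**
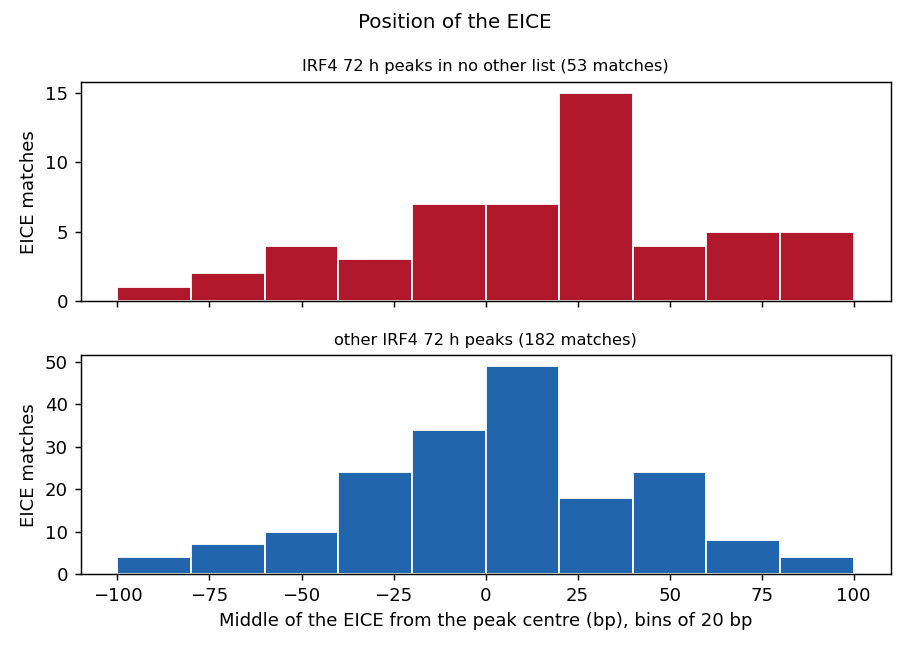
Number of EICE matches (vertical axis) by the distance of the element's middle from the peak centre in bins of 20 bp (horizontal axis), for the 53 matches of IRF4-alone peaks (top) and the 182 matches of shared peaks (bottom); the vertical scales differ. Positions are signed, with positive values towards higher coordinates. The fullest bin of the top panel runs from 20 to 40 bp with 15 matches, while the bin from −40 to −20 bp holds 3. In the bottom panel the fullest bin runs from 0 to 20 bp with 49 matches, and the bin from −20 to 0 bp holds 34.

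The IRF4-alone peak with most tags lay at a promoter. At Hjurp, which encodes the chaperone that loads the centromeric histone CENP-A, the peak (chromosome 1, 90173916 to 90174416) carried 25 tags, 66.4 normalised tags with an exact Poisson 95% interval of 43 to 98. Its centre lay 0.012 kb upstream of the TSS in DNA of 63% G + C, with a GC box and none of the IRF elements. Its fold over the surrounding region was 6.17, under the lower quartile of 7.45 of the IRF4-alone peaks. The next by tag count was in an intron of Ell2 (chromosome 13, 75877360 to 75877860), which encodes an elongation factor that favours the secreted form of immunoglobulin heavy chain mRNA in plasma cells. It carried 47.8 normalised tags (28.3 to 75.5) and an EICE, an AP-1 site and an octamer within 100 bp of its centre, 32.7 kb inside the gene. A peak in an intron of Atp11b (chromosome 3, 35663492 to 35663992), a phospholipid flippase gene, followed with 42.5 (24.3 to 69), an ISRE core and an AP-1 site. The peak nearest to Zfp238, a transcriptional repressor gene, had 39.8 and an octamer, 44.2 kb from the TSS. The Poisson intervals of these 4 peaks overlap, so their order is not resolved by counting error alone.

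An equal count of 39.8 was found at a peak 67.5 kb upstream of Plcg2, beyond the 50 kb within which genes were named. At 37.2 normalised tags (14 tags, 20.3 to 62.4) there were 10 single-copy peaks, of which 8 were named by the rule on tag count. These were assigned to Nek7, Ccr7, Uimc1, Elf2, Baiap2l1, Mob1a, Gm4968 and Kcnj1. Nek7 encodes a kinase of the NLRP3 inflammasome, and its peak lay in an intron with the EICE printed above. The Ccr7 peak (chromosome 11, 99011731 to 99012231) was the IRF4-alone peak with AICE1, in an intron 4.41 kb from the TSS. Mob1a, a gene of the Hippo kinase pathway, had its peak 3.9 kb upstream with an ISRE core. Kcnj1, a potassium channel gene, had an EICE 0.914 kb inside the gene. Uimc1, of the DNA damage response, had a peak with none of the IRF elements, and likewise Elf2, an ETS factor gene, whose peak held a GC box and an octamer.

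IRF elements at promoters were few in the IRF4-alone set: 7 of 57 promoter peaks (12.3%, 5.08 to 23.7) held an EICE, ISRE core or AICE, against 34 of 90 shared promoter peaks (37.8%, 27.8 to 48.6), with no test of this grouping. Besides Kcnj1 they were assigned to Dpep2, a dipeptidase gene, with 31.9 normalised tags, and to Exoc2, Arl10, Rapgef2, Zcchc7 and Slc37a2, with 26.6 each. Exoc2 (an exocyst subunit), Arl10 and Zcchc7 held an EICE and a GC box in the same window, and Slc37a2, a sugar phosphate exchanger gene, held an EICE and an ISRE core 0.05 kb from its TSS. The Rapgef2 peak, 15.9 kb from that gene's TSS, was counted as a promoter peak through an annotated U6 RNA gene.

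Genes of B cell function lay near few of the IRF4-alone peaks. Within 50 kb of a protein-coding TSS were 215 IRF4-alone peaks (85.7%), assigned to 210 genes, and 510 shared peaks (80.3%), assigned to 479 genes. Over 13 lists of B cell genes and other cell type markers, 11 of the 215 IRF4-alone peaks (5.12%) and 41 of the 510 shared peaks (8.04%) were nearest to a listed gene, while 1.34% of all protein-coding genes are in a list. Binding near a gene says nothing on whether its expression changed. Of the 210 genes of IRF4-alone peaks, 66 (31.4%) were also the nearest gene of an interval in another list, beside 11.1% of all protein-coding genes, with no test. The 48 h IRF4 list accounted for 37 of them (17.6%, beside 4.81% of all genes) and the GC list for 33 (15.7%, beside 6%). A shared 72 h IRF4 peak was assigned to 17 of the 210 (8.1%, beside 2.16% of all genes).

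Receptors of cell migration were the listed surface genes with IRF4-alone peaks. Ccr7, the chemokine receptor that draws lymphocytes to T cell zones, had a second IRF4-alone peak (chromosome 11, 99029107 to 99029607) with 34.5 normalised tags, 13 kb upstream and without any of the 16 elements. S1pr1, the receptor for lymphocyte exit from lymphoid organs, had 26.6 at 10.5 kb. Cxcr4, the chemokine receptor by which plasma cells home to bone marrow, counted here with the plasma cell genes beside Ell2, had 26.6 at 16 kb upstream and an EICE. Intervals of other lists were also assigned to each of these receptor genes. Ccr7 had 1 in the 48 h IRF4 list, and Cxcr4 had 2 in the GC list. S1pr1 had 1 each in the 48 h IRF4, 72 h IRF8 and 48 h IRF8 lists. None was assigned to Ell2.

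Signalling genes of the B cell receptor made up another 3 of the 11 peaks. Vav2, a guanine nucleotide exchange factor, had 31.9 normalised tags and the EICE printed above in an intron. Plcg2, the phospholipase downstream of the receptor, had 29.2 at 25.1 kb upstream, besides the stronger peak of 39.8 with an octamer at 67.5 kb upstream, which lay outside the distance limit. Rasgrp3, an activator of Ras, had 26.6 at its promoter, 0.26 kb upstream. In the shared set 7 peaks were assigned to this list. The last 3 peaks belonged to Eif2ak3, the PERK kinase of the unfolded protein response (26.6, 13.8 kb upstream), Ets1, a transcription factor gene (26.6, in an intron), and Traf1, an adaptor of tumour necrosis factor receptors (23.9, 2.03 kb upstream, with a GC box). These genes, too, were assigned intervals of other lists. Rasgrp3, Eif2ak3, Ets1 and Traf1 had 1 each in the 48 h IRF4 list. Rasgrp3, Ets1, Vav2 and Plcg2 had 1 each in the 72 h IRF8 list. Vav2 had 1 in the 48 h IRF8 list, and Plcg2 had 2 in the GC list. B lineage transcription factor genes were assigned 1 IRF4-alone peak and 11 shared peaks. The remaining 7 lists, which were those of AP-1 and BATF, antigen presentation, Myc and cell cycle, apoptosis, germinal centre and activation, interferon and IRF, and T cell, myeloid and natural killer cell genes, had no IRF4-alone peak and at most 3 shared peaks each. Only protein-coding genes were assigned, which leaves out Trac, whose TSS was the nearest to the CRE peak assigned to Dad1.

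Few genes held more than 1 IRF4-alone peak. Besides Ccr7, and Plcg2 when its peak beyond 50 kb is counted, these were Atg5, an autophagy gene, Eif4g2, a translation factor gene, Klhdc4 and the predicted gene Gm15319, with 2 peaks each. At Eif4g2, 1 peak lay at the promoter in DNA of 78% G + C, the highest value of the set, and the other lay 41.2 kb upstream with an EICE. Both Gm15319 peaks were in sequence with more than 1 copy in the genome, where reads cannot be placed with certainty. Such multi-copy peaks were 6 of the IRF4-alone peaks (2.39%) and 48 of the shared peaks (7.56%).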

How the data were processed

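Peaks, tags and all other values were taken from the deposited lists. The members and gene lists were chosen with earlier results of these data known. For the 4 LPS lists the authors ran findPeaks of HOMER, per the file headers, with peaks of 500 bp, at least 1000 bp apart, a false discovery rate of 0.001 and a local fold of 4 or more within 10000 bp. No input library is named there, and the IRF8 72 h header calls its tags the second replicate. MACS called the GC list according to the series' design text, so caller and cell type cannot be told apart in it. The submitters' processing notes name Bowtie2 and BWA, and which program aligned which library is not given in the sources used here. The names of the LPS lists also carry the tag Tbp1Tg, which the labels do not explain. The build was mm9 per the labels.

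The normalised tag count is a signal that the authors scaled, per the file headers, to 10000000 tags; dividing out the scaling gave whole tags within 0.05 for 100% of peaks. The findPeaks score, the fold ratios, the Poisson p-value and the fraction of tags in their proper place are the authors' values per peak, per the file headers, and entered no test; the score also served to scale peaks between library depths. The deposited GC list gives positions alone.

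Of 898 peaks, 12 on unplaced sequence were left out. Python 3.11.15 with numpy 2.4.6, pandas 2.3.3, scipy 1.17.1, numba 0.67.0, pysam 0.24.0 and matplotlib 3.10.9 was used. Genes are those of GENCODE M1 on NCBIM37. Each peak took the protein-coding gene whose TSS was nearest, within 50 kb for gene lists and named genes. A peak was multi-copy when the median word of 24 bases within 100 bp of its centre occurred more than 1 time in the genome. NF-kappaB, NRF1, YY1, CTCF, CCAAT and E-box elements were searched besides those spelled out in the results. Genome tiles were 1 in 10 of the windows of 200 bp that cover the same chromosomes. Shares were compared by Fisher's exact test, two-sided, with Benjamini-Hochberg adjustment, after a check on simulated data. Intervals are exact (Clopper-Pearson or Poisson) at 95% and cover counting error only; sequenced tags are not independent molecules, and peaks of 1 library are not replicates. Among single-copy members within 50 kb of a protein-coding TSS, named genes were the 12 with most tags (ties by chromosome name and position), up to 8 at promoters with an IRF element, and all next to a listed gene with values for up to 3 per list; CRE peaks, genes with several peaks, the distant Plcg2 peak and those next to the overlap limit were named after their values were seen.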

Additional observations from a re-analysis of the deposited data

How the results depend on the processing

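Values here are differences in percentage points, IRF4-alone minus shared peaks, with the adjusted p in brackets; all come from Fisher's exact test. Widening the other lists' intervals by 500 bp gave 247 members, a required overlap of 250 bp 266, single-copy peaks 245 and leaving out the GC list 294; the calls for EICE, AP-1, GC box and promoter held under the first 3 of these. Peaks with at least 29.2 normalised tags, of which 97 were members, gave −4.9 (0.622) for EICE and 7.67 (0.112) for promoters. Peaks below gave −6.29 (0.475) for EICE, −4.7 (0.557) for AP-1, 6.16 (0.461) for the GC box and 6.34 (0.679) for promoters. Windows of 50 bp to each side gave −7.95 (0.0754), −6.41 (0.0754) and 3.29 (0.0846) for EICE, AP-1 and GC box, and whole peaks −7.92 (0.0722) for EICE. Distal peaks gave −5.68 (0.302), −8.92 (0.15) and 2.83 (0.302), and promoter peaks, added with the values known, −15.03 (0.175), −5.85 (0.517) and 18.42 (0.131). Promoters of 2500 bp gave 7.31 (0.0571). The cause of these changes was not tested. The tag, distal and promoter subsets held fewer peaks, while the other windows and the promoters of 2500 bp used the full sets. CRE lost its call in 6 of these subsets and windows, and RUNX also with single-copy peaks (0.0605). A gene limit of 10000 bp left 3 of the 11 peaks next to a listed gene, and 100000 bp gave 13.

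Some elements without a call gained one. With a required overlap of 250 bp, AICE1 and AICE2 passed (−2.37 each, Fisher's exact test, adjusted p = 0.0434). In whole peaks the CTCF core passed (1.59, Fisher's exact test, adjusted p = 0.0341). The sign turned only for uncalled shares. This was so for ISRE in distal peaks (0.59); for AICE2 (0.04), ETS (1.32), YY1 (1.46), octamer (−1.67), E-box (−3.39) and intergenic DNA (2.12) below 29.2 tags; for YY1 (1.22) and E-box (−0.06) in single-copy peaks; for CCAAT (0.34) and YY1 (0.41) in the narrow window; for ETS (1.45), CCAAT (1.08), YY1 (1.66) and NF-kappaB (1.69) in whole peaks; for ETS (1.06), YY1 (0.55) and NRF1 (−0.18) in distal peaks; and for CCAAT (2.75) and E-box (−8.01) in promoter peaks.

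With 1 library per group, no difference has a replicate check, and a median of 10 tags per peak leaves single peaks with wide intervals.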
